A study of Mus musculus with 20 samples.

Results

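Transcripts of 10 interleukin genes that dendritic cells use to instruct T cells were followed across 8 groups of mouse type 1 conventional dendritic cells (cDC1s), the subset that carries XCR1 and cross-presents antigen to CD8 T cells. They are the subunit genes of the IL-12 family (Il12a, Il12b, Il23a, Il27 and Ebi3), together with Il10, Il15, Il18, Il6 and Il1b. They were found in the tables by symbol, after earlier results of these data were known, and all 10 were found in each of the 3 deposited count tables, which list 47729, 54532 and 55487 genes. The 20 libraries come from bulk RNA sequencing of sorted cells, and groups were compared within a table only, since the tables were counted separately.

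The first table holds cDC1s sorted as XCR1+CD8a+ from mice of the WT C57BL/6 genotype. Of these, 2 libraries come from mice conditioned with TLI/ATS (total lymphoid irradiation with anti-thymocyte serum) and labelled day 15, and 2 come from mice that had no treatment. The second table holds XCR1+CD8a+ cDC1s of EpoR-tdTomato mice, which report the erythropoietin receptor, all at day 15 after TLI/ATS, parted into an EpoR+ and an EpoR- fraction with 2 libraries each. The third table holds CCR7+ XCR1+ cDC1s that were SIPRa- (as the labels spell it), from spleen and from peripheral lymph nodes, those of lymph node being called migratory as well. Each tissue was taken from Eporflox/flox controls and from Epor-Xcr1-Cre cKO mice, with 3 libraries in each of the 4 groups and 10 ng of RNA per library. Xcr1-Cre acts in cells that express Xcr1. The labels name no Cre in the controls, so an effect of Cre and one of losing Epor cannot be told apart. No age is given, no tissue is named for the first 2 tables, and nothing says whether libraries of a group came from separate mice, so p-values measure the spread between these libraries, which may be technical.

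The IL-12 family is built from shared chains. Il12b encodes p40, which pairs with p35 (Il12a) to form IL-12 and with p19 (Il23a) to form IL-23, while Ebi3 pairs with p28 (Il27) to form IL-27 and with p35 to form IL-35. IL-12 from cDC1s drives interferon-gamma production by T and NK cells. Of the other cytokines, IL-15 is held on the cell surface by its receptor chain and presented to CD8 T and NK cells, IL-1beta and IL-18 are made as precursors that caspase-1 cuts, IL-6 is an inflammatory cytokine, and IL-10 restrains antigen-presenting cells.

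Libraries held 40583507 to 77570149 counts in the first table, 33660774 to 40127646 counts in the second and 26618029 to 49700660 counts in the third. Levels are CPM, which scale each library's counts to one common total, here after TMM, edgeR's correction for composition. Scaling factors ran from 0.837 to 0.936 in spleen and from 1.06 to 1.13 in lymph node. Epor, the gene deleted in the cKO mice, had 1, 0 and 6 counts in the spleen control libraries and 0, 2 and 0 in the spleen cKO libraries, so its loss was not detectable there at this depth. It had 24, 28 and 4 counts in lymph node controls and 0 in all 3 lymph node cKO libraries. In the second table Epor had 525 and 657 counts in EpoR+ against 4 and 11 in EpoR-, and in the first 236 and 127 after TLI/ATS against 0 and 0 in untreated mice. All 12 cDC1 markers had counts in every group. Their summed level was 2962 to 3093 CPM in lymph node controls against 4522 to 5154 CPM in spleen controls, and Clec9a was as low as 12.9 CPM in a lymph node control library. The summed level of 7 markers of mature dendritic cells, such as Ccr7 and Fscn1, lay between 9514 and 15142 CPM in the third table.

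Measured per kilobase of exon, which allows genes to be ranked within a table, Il12b stood highest of the 10 genes in all 4 spleen and lymph node groups and Il1b had the highest group mean in the 4 groups of the other tables. In EpoR+ cells that rested on the second library, since the first had 36.5 CPM per kb of Il1b and 103 of Il18. In spleen controls Il12b had a level of 960 ± 29.6 CPM per kb (SD, n = 3), followed by Il15 at 86.2 ± 1.27, Il1b at 72.8 ± 7.20, Ebi3 at 37.2 ± 5.02 and Il27 at 24.3 ± 3.74. Il15 and Il1b were neighbours in that order that swapped places in spleen cKO (82.4 ± 2.61 and 86.5 ± 8.85 CPM per kb). In lymph node controls Il12b again led with 397 ± 16.8 CPM per kb, ahead of Il15 at 122 ± 7.02, Ebi3 at 67.5 ± 3.19 and Il27 at 27.9 ± 1.36, and Il1b and Il18 did not differ beyond their spread (14.2 ± 3.91 and 13.2 ± 1.61). In untreated cDC1s Il1b was at 301 ± 9.26 CPM per kb, Il12b at 66.1 ± 3.23 and Ebi3 at 47.6 ± 1.00 (SD, n = 2).

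**Figure D1:**
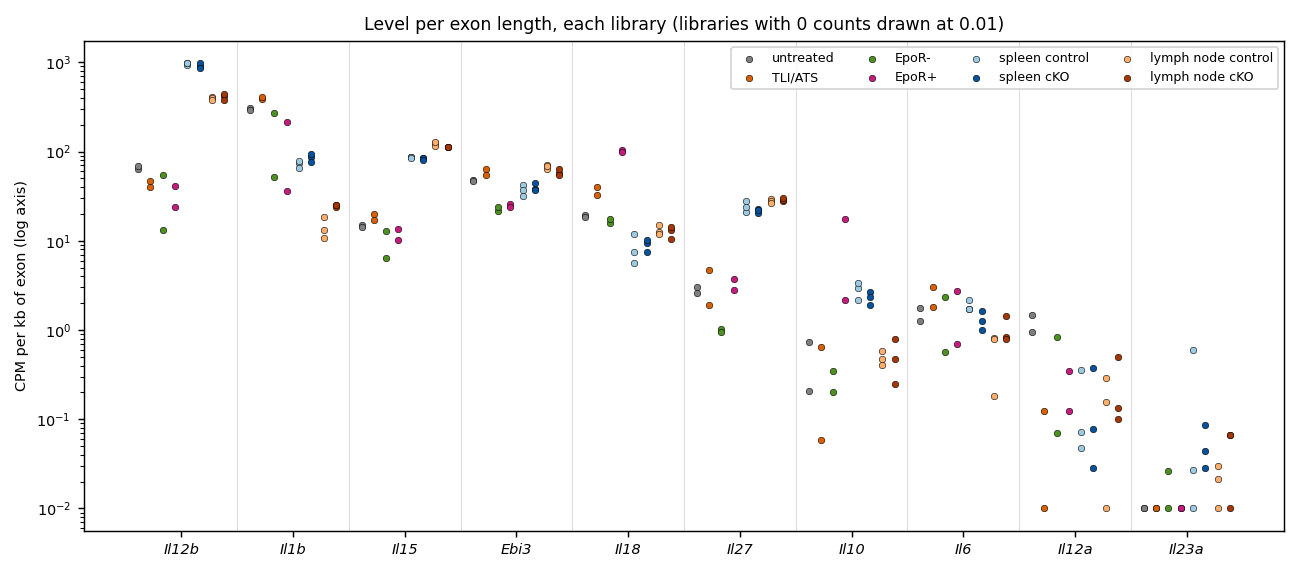
Level of each gene in CPM per kilobase of exon (log axis) for every library, with one colour per group; libraries with 0 counts are drawn at 0.01. Il12b lies near 960 CPM per kb in spleen controls and 397 in lymph node controls, and Il23a is the lowest or next to lowest gene in each group. Colours from different tables are not to be compared.

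The partner chains of p40 were scarce. Il23a had 0 counts in all 4 libraries of the first table and in both EpoR+ libraries, and 0 and 2 in the EpoR- libraries. A count of 0 allows up to 0.0387 to 0.0739 CPM in the first table, taking 3 counts over the unscaled total and counting error only. In the third table Il23a had 2, 33 and 0 counts in spleen controls, 8, 3 and 2 in spleen cKO, 3, 0 and 2 in lymph node controls, and 7, 0 and 8 in lymph node cKO. With 10 counts or fewer in every library it was near 0 in 7 of the 8 groups, the spleen controls being the exception through 1 library, and it failed the low-count filter in all tables and was not tested.

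Il12a, the p35 chain, was also scarce. In the first table it had 78 and 107 counts in untreated libraries and 0 and 13 after TLI/ATS. In the second table it had 22 and 8 counts in EpoR+ and 56 and 4 in EpoR-. In the third table it had 4, 2 and 18 counts in spleen controls, 2, 4 and 20 in spleen cKO, 22, 12 and 0 in lymph node controls, and 8, 10 and 45 in lymph node cKO. In each of the last 2 tables the groups overlapped and differences in Il12a were small beside the spread of its libraries.

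Positions on GRCm38 show which counts could be shared with other genes, since the counting used no strand in the last 2 tables. Il12b lies on chromosome 11 (44400063 to 44414033, plus strand), Il12a on chromosome 3 (68690644 to 68698547, plus), Il23a on chromosome 10 (128296139 to 128298752, minus), Il10 on chromosome 1 (131019845 to 131024974, plus), Il15 on chromosome 8 (82331632 to 82403222, minus), Il18 on chromosome 9 (50554827 to 50581840, plus) and Il6 on chromosome 5 (30013114 to 30019981, plus). The exons of these 7 genes share no base with those of another annotated gene. Of the exon bases of Ebi3 (chromosome 17, 55952640 to 55957022, plus), 23.4% lie in Gm16712 on the opposite strand. For Il27 (chromosome 7, 126589010 to 126594941, minus) 10.1% lie in Apobr, and for Il1b (chromosome 2, 129364570 to 129371139, minus) 1.31% lie in Il1bos. Gm16712 had 66 to 1033 counts and Apobr 563 to 1660 in the third table, where Ebi3 had 923 to 3853 and Il27 607 to 1627. In the second table Apobr had 6590 to 9033 counts and Il27 33 to 144. Reads from these shared stretches cannot be assigned, so values of Ebi3 and Il27 are less certain than those of the other genes.

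The clearest differences among the interleukins were between spleen and lymph node. In both genotypes lymph node cDC1s had lower Il12b, Il10 and Il1b and higher Ebi3 and Il15 than spleen cDC1s. In controls 6 of the 9 genes tested passed an adjusted p of 0.05 in edgeR (quasi-likelihood test, p-values adjusted over all genes by the Benjamini-Hochberg method), 2 of them higher (Ebi3 and Il15) and 4 lower (Il12b, Il10, Il6 and Il1b) in lymph node. Of all 17362 genes tested, 41.3% passed in that comparison, 21% as higher and 20.3% as lower. In cKO mice 6 passed as well, 3 higher (Il27, Ebi3 and Il15) and 3 lower (Il12b, Il10 and Il1b), against 29.4% of all genes (14.1% higher and 15.3% lower). Spleen and lymph node values stood apart without overlap for 7 of the 9 in each genotype, as they did for 49.5% of all genes in controls and 50.9% in cKO mice. The median log2 difference of the tested interleukins was -0.09 in controls and 0.41 in cKO mice, where that of all genes was -0.01 and 0.00. Whether fewer cells made a transcript or each cell held less of it cannot be told apart in bulk samples.

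Upstream sequences are shown for the 4 of these genes that are in the RefSeq promoter table and passed between tissues, 3 lower and 1 higher in lymph node. Each is the run of 250 bases before the RefSeq start on GRCm38.p6, read 5′ to 3′ on the gene's own strand, with matches to a motif in capitals.
Il12b: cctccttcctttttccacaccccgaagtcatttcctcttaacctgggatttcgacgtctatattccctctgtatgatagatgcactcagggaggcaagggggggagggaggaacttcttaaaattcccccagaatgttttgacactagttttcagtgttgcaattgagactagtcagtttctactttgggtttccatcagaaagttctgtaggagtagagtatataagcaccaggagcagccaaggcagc
Il1b: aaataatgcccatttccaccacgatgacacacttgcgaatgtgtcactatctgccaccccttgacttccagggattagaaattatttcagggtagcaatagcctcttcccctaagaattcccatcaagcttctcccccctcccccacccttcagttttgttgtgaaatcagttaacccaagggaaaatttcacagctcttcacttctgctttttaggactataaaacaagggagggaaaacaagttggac
Il6: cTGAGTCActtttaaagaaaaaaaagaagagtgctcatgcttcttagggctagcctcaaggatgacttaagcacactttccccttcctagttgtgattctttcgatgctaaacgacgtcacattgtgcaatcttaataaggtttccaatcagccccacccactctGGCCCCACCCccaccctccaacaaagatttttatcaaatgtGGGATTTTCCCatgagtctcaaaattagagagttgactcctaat
Ebi3: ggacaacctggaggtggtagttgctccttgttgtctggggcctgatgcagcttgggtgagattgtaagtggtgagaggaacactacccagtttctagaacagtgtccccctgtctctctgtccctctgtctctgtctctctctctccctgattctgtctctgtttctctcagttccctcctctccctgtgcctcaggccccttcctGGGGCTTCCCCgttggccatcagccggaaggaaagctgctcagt
They lie at chr11:44399813-44400062 (plus), chr2:129371140-129371389 (minus), chr5:30012864-30013113 (plus) and chr17:55952373-55952622 (plus). Motifs searched on both strands were an NF-kB pattern (GGG and CC parted by any 5 bases), an interferon response element (GAAA and GAAA parted by any 2 bases) and an AP-1 pattern (TGANTCA), which 45.8%, 2.98% and 6.75% of 32851 promoters of the same length hold. Il6 held NF-kB matches between bases 44 and 34 and between bases 85 and 76 before the start and an AP-1 match 249 to 243 before it, and Ebi3 held overlapping NF-kB matches 44 to 34 before the start. In Il12b and Il1b these letters were not found in the window, and a site with other letters would be missed by such a search. Il10, Il15, Il23a and Il27 are not in the table.

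Il12b, the p40 chain, had 1822, 1915 and 1930 CPM in spleen controls and 809, 790 and 745 CPM in lymph node controls. In cKO mice it had 1798, 1919 and 1693 CPM in spleen and 833, 750 and 859 CPM in lymph node. All 6 lymph node libraries lay below all 6 spleen libraries. The log2 difference was -1.27 ± 0.07 (SE; 2.42-fold lower; adjusted p = 3.12e-09) in controls and -1.15 ± 0.07 (2.22-fold lower; adjusted p = 1.17e-08) in cKO mice.

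Il1b, the precursor of IL-1beta, differed most among the well-counted genes. It had 143, 150 and 123 CPM in spleen controls against 25.2, 20.6 and 35.2 CPM in lymph node controls, and 167, 180 and 147 CPM in spleen cKO against 48.5, 45.1 and 47.5 CPM in lymph node cKO. No lymph node library came near the spleen range. The log2 difference was -2.36 ± 0.16 (5.15-fold lower; adjusted p = 2.11e-08) in controls and -1.81 ± 0.16 (3.51-fold lower; adjusted p = 4.29e-07) in cKO mice. Neutrophil markers also differed between the tissues. All 7 of those tested were lower in lymph node in both genotypes, with a summed level of 31.0 to 65.0 CPM in spleen and 0.291 to 1.36 CPM in lymph node, and Ly6g was at 0 in every spleen and lymph node library. Their part in the Il1b difference was not tested.

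Il10, a restraining cytokine, was low in both tissues. It had 2.87, 3.89 and 4.42 CPM in spleen controls and 0.760, 0.626 and 0.532 CPM in lymph node controls, where 22 to 34 counts stand behind each value. In cKO mice it had 2.48, 3.49 and 3.09 CPM in spleen and 0.324, 1.03 and 0.625 CPM in lymph node. The groups did not overlap, with log2 differences of -2.54 ± 0.50 (adjusted p = 0.000766) and -2.19 ± 0.49 (adjusted p = 0.00312). Markers of other cells were lower in lymph node controls as well. Those of plasma cells summed to 274 to 302 against 1464 to 1583 CPM in spleen (4 of 6 lower and 1 higher), those of macrophages to 148 to 168 against 304 to 320 CPM (4 of 10 tested lower and 3 higher), and those of basophils and mast cells to 0.169 to 0.738 against 4.11 to 6.91 CPM (3 of 4 tested lower). In cKO mice 5 of 6, 5 of 10 and 3 of 4 were lower, and 1 macrophage marker was higher. Plasma cell markers there summed to 258 to 309 CPM in lymph node against 2861 to 3166 CPM in spleen. In spleen 3 of these 6 were higher in cKO than in controls. The part of all these markers in the Il10 difference was not tested.

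Ebi3, the beta chain of IL-27 and IL-35, and Il15 went the other way. Ebi3 had 48.6, 37.0 and 42.9 CPM in spleen controls and 80.8, 73.7 and 79.0 CPM in lymph node controls, a log2 difference of 0.86 ± 0.12 (1.81-fold higher; adjusted p = 3.45e-05). In cKO mice it had 43.5, 51.3 and 42.6 CPM in spleen and 67.0, 63.3 and 73.0 CPM in lymph node (0.57 ± 0.12; 1.48-fold; adjusted p = 0.00186). Every lymph node library was above every spleen library of its genotype.
Il15 had 198, 195 and 192 CPM in spleen controls against 279, 259 and 291 CPM in lymph node controls (0.50 ± 0.07; 1.42-fold higher; adjusted p = 3.98e-05). In cKO mice it had 189, 191 and 180 CPM in spleen against 251, 252 and 255 CPM in lymph node (0.44 ± 0.07; 1.35-fold higher; adjusted p = 0.000216). Il15 thus varied by little within a group. Il15ra, the chain that holds IL-15 on the presenting cell, was higher by 1.07 ± 0.07 in lymph node in each genotype (325 ± 5.86 against 682 ± 34.1 CPM in controls).

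Il27, the p28 chain, had 21.2, 24.4 and 28.8 CPM in spleen controls and 29.96, 28.2 and 27.2 CPM in lymph node controls, which overlapped (0.20 ± 0.14; adjusted p = 0.279). In cKO mice it had 20.8, 23.3 and 22.7 CPM in spleen and 28.7, 29.4 and 30.8 CPM in lymph node, without overlap (0.41 ± 0.14; 1.33-fold; adjusted p = 0.0362). The call in cKO mice was lost when any 1 of the 6 cKO libraries was left out (adjusted p of 0.0523 to 0.1099) and without a low-count filter (0.0866). The difference between the genotypes in this tissue contrast was 0.22 ± 0.20 on the log2 scale and did not pass (adjusted p = 0.714).

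Il6 had 5.26, 4.22 and 4.21 CPM in spleen controls and 0.447, 1.97 and 1.93 CPM in lymph node controls (-1.65 ± 0.50; adjusted p = 0.0153), but the groups overlapped in cKO mice (3.09, 3.92 and 2.42 against 2.03, 3.45 and 1.91 CPM; -0.35 ± 0.49; adjusted p = 0.635). The call in controls missed the threshold in a fit of the compared libraries alone (adjusted p = 0.0537), and the difference between genotypes did not pass (1.30 ± 0.69; adjusted p = 0.464). Il18 ran from 5.86 to 12.2 CPM in spleen controls and from 12.3 to 15.5 CPM in lymph node controls. Its log2 difference of 0.66 ± 0.26 missed the threshold (adjusted p = 0.0539), and it passed without the first spleen control library (1.05; adjusted p = 0.00301) with DESeq2 (adjusted p = 0.0322) and without a low-count filter (0.0470). In cKO mice Il18 differed by 0.48 ± 0.26 (adjusted p = 0.191).

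**Figure D2:**
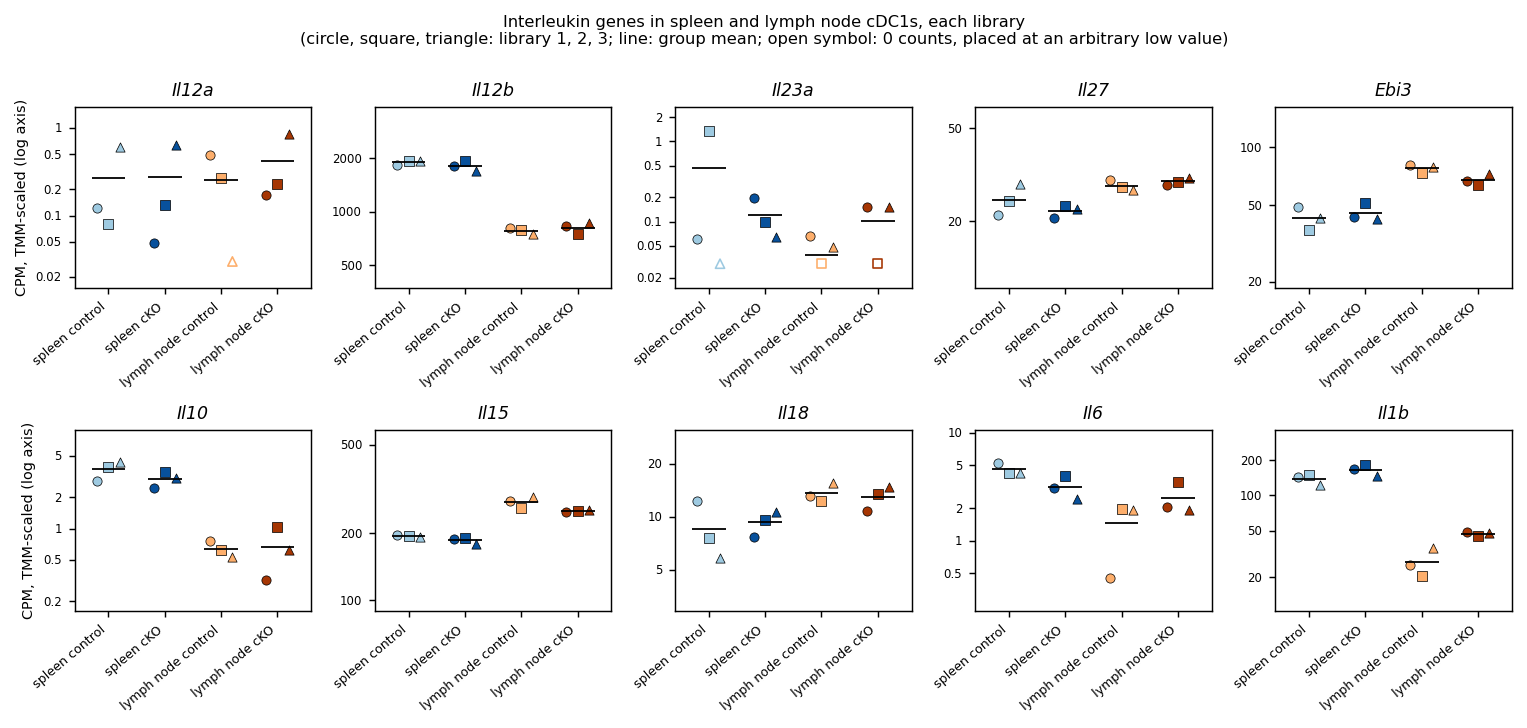
CPM after TMM scaling (log axis, one scale per gene) of the 10 genes in the 12 spleen and lymph node libraries, with 1 symbol per library and a line at the group mean; open symbols mark 0 counts and sit at an arbitrary low value. Il12b and Il1b drop from spleen to lymph node in both genotypes, and Ebi3 and Il15 rise. Il12a scatters between 0 and 0.852 CPM and Il23a between 0 and 1.32 CPM.

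Il12b and Ebi3, both of which can pair with p35, went opposite ways between the tissues. Per kilobase of exon, the level of Il12b was 26.2 ± 4.18 times that of Ebi3 in spleen controls and 23.2 ± 1.16 times in spleen cKO, against 5.89 ± 0.38 and 7.05 ± 0.21 times in lymph node (SD, n = 3 each). No lymph node library, at 5.53 to 7.29, overlapped the spleen libraries, at 22.0 to 30.3. The level of Ebi3 was 1.56 ± 0.40 times that of Il27 in spleen controls and 2.42 ± 0.13 times in lymph node controls, but 1.82 ± 0.15 and 2.02 ± 0.10 times in cKO mice, where the tissues overlapped. These ratios inherit the opposite-strand overlaps of Ebi3 and Il27.

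Genes around these cytokines also differed between the tissues, as many genes did. In lymph node controls 21% of all genes passed as higher and 20.3% as lower. Of 29 inducing and processing factors, 28 were tested, and 3 were higher and 11 lower in lymph node controls (median -0.47). The 4 with the smallest adjusted p were Rel (-1.89 ± 0.09), the NF-kB subunit c-Rel that acts on the Il12b promoter, Batf (-1.75 ± 0.10), Nfkbiz (-1.58 ± 0.11) and Batf3 (-1.14 ± 0.08), a factor of cDC1 identity. Of 18 receptor genes 8 were higher and 3 lower, among them Il10ra (-1.39 ± 0.09), Il15ra, Il18bp (1.27 ± 0.15), which encodes a soluble trap for IL-18, and Il23r (2.47 ± 0.35). Of 16 signalling genes 9 were higher and 3 lower, led by Jak3 (1.94 ± 0.19), Stat3 (0.64 ± 0.08), Stat4 (1.19 ± 0.17) and Jak2 (-0.71 ± 0.12). Of 25 other cytokine genes 14 were tested, and 4 were higher and 4 lower, led by Tnf (-2.10 ± 0.14; 169 ± 24.5 against 39.4 ± 6.85 CPM), Lif (-2.71 ± 0.25), Csf1 (3.73 ± 0.30) and Il7 (1.09 ± 0.18). In cKO mice 14.1% of all genes passed as higher and 15.3% as lower. The counts there were 3 higher and 8 lower among inducers and 4 and 2 among receptors. Among signalling genes they were 6 and 2, and among other cytokines 3 and 5. T cell markers rose with them, 7 of 8 being higher in lymph node controls (136 to 147 against 28.3 to 38.8 CPM summed), and their part in the receptor and Jak3 values was not tested.

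Genes most like the 3 interleukins with the highest level were found by Pearson correlation of log2 CPM over the 12 spleen and lymph node libraries, which fall into 2 tissues, so that r mainly describes the split between them. For Il12b they were Itgax (r = 0.993), Rnase6 (0.991) and Hbb-bt (0.991). For Il15 they were Mob1a (0.994), Rnf19a (0.992) and Ccni (0.992), and for Il1b Ciita (0.993), Cxcr4 (0.989) and Cytip (0.985).

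Between Epor-Xcr1-Cre cKO and control mice, 8 of the 9 tested interleukins gave no call in lymph node and all 9 gave none in spleen. In lymph node the exception was Il1b, which was higher in cKO at 48.5, 45.1 and 47.5 CPM against 25.2, 20.6 and 35.2 CPM in controls. The groups did not overlap, and the log2 difference was 0.80 ± 0.15 (1.74-fold; edgeR adjusted p = 0.0263), where 0.455% of all genes passed and 0.288% passed as higher. The call was lost when either of the first 2 control libraries or any of the cKO libraries was left out (adjusted p of 0.0539 to 0.161), and in a fit of the 6 lymph node libraries alone (0.152), while the log2 difference stayed between 0.64 and 1.04. Neutrophil markers summed to 0.291 to 1.16 CPM in lymph node controls and 0.814 to 1.36 CPM in cKO, with none of 7 called, and macrophage markers to 148 to 168 and 147 to 148 CPM.

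In spleen Il1b had 143, 150 and 123 CPM in controls and 167, 180 and 147 CPM in cKO, which overlapped (0.25 ± 0.15; adjusted p = 0.525). Neutrophil markers there summed to 31.0 to 40.1 CPM in controls and 54.9 to 65.0 CPM in cKO, with none of 7 called, and their part in these values was not tested. The difference between the effects in lymph node and spleen was 0.55 ± 0.22 and did not pass (unadjusted p = 0.0210; adjusted p = 0.309). None of the 9 interleukins passed in spleen by edgeR's test, none reached an unadjusted p of 0.05 and DESeq2 called none either, where 0.611% of all genes passed by edgeR. In the test of the difference between tissues 0 of 9 passed and 1, Il1b, had an unadjusted p under 0.05, where 0.317% of all genes passed and DESeq2 again called no interleukin.

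The intervals give the range of differences that the spread between these libraries allows for the better-counted genes. That spread may be technical, so the intervals do not bound an effect between mice. In spleen, moreover, the loss of Epor itself was not detectable. For Il12b the 95% interval of the log2 difference between cKO and control was -0.22 to 0.08 in spleen and -0.09 to 0.21 in lymph node. For Il15 it was -0.21 to 0.09 and -0.28 to 0.02, for Ebi3 -0.16 to 0.35 and -0.45 to 0.05, and for Il27 -0.46 to 0.14 and -0.24 to 0.36. They were far wider for the scarce genes, at -3.10 to 3.10 for Il12a and -1.30 to 0.69 for Il10 in spleen.
Groups without overlap were seen for 2 of 9 genes in spleen (Il15 and Il6, both lower in cKO) and 3 of 9 in lymph node (Il1b higher, Ebi3 and Il15 lower), against 17.9% and 15.5% of all genes tested. In CPM without TMM scaling Il15 and Il6 overlapped in spleen, and Il15 in lymph node.

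Around the interleukins 1 listed gene passed in lymph node, where 0.455% of all genes did. Rel had 174, 178 and 204 CPM in controls and 267, 271 and 238 CPM in cKO, a log2 difference of 0.48 ± 0.09 (edgeR adjusted p = 0.0165). In spleen it had 682, 743 and 627 CPM in controls and 571, 540 and 581 CPM in cKO (-0.28 ± 0.09; adjusted p = 0.177). The directions were opposite, and the difference between tissues passed (0.76 ± 0.12; adjusted p = 0.0110). No receptor, signalling or other cytokine gene of the lists passed for cKO in either tissue. Of the cDC1 markers, Cd8a (0.51 ± 0.09) and Clec9a (0.62 ± 0.11) were also higher in lymph node cKO.

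EpoR+ cDC1s after TLI/ATS had more Il18 and Il27 than the EpoR- fraction. Il18 had 106 and 101 CPM in EpoR+ against 16.1 and 17.8 CPM in EpoR-, a log2 difference of 2.61 ± 0.12 (6.09-fold; edgeR adjusted p = 0.000194). Of the 9 interleukins tested 2 passed, both higher, where 16.7% of all 15627 genes passed, 11.9% as higher and 4.75% as lower. Il27 had 2.88 and 3.77 CPM in EpoR+ against 1.06 and 0.981 CPM in EpoR- (108 and 144 against 42 and 33 counts; 1.70 ± 0.42; adjusted p = 0.0491). That call was lost with any 1 of the 4 libraries left out (adjusted p of 0.0947 to 0.270) and with RLE size factors (0.0509). Leaving out 1 library of a fraction leaves a lone library there, which is assumed to vary like the pair of the other fraction. In simulated data with 2 libraries a group more calls were false than the threshold allows, so a value this near to it is uncertain.

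Macrophage markers moved with these genes. All 12 of them were higher in EpoR+, with a summed level of 19365 and 19471 CPM against 401 and 404 CPM in EpoR-, while 11 of 12 cDC1 markers were lower (7941 and 9437 against 16903 and 18621 CPM). C1qa (6.63 ± 0.12) and Vcam1 (6.53 ± 0.13) were among the macrophage markers. Markers of type 2 conventional dendritic cells and monocyte-derived cells summed to 1958 and 1880 CPM in EpoR+ against 162 and 117 CPM in EpoR-. Of these 8 markers 5 were higher and 1 lower, with Sirpa alone at a mean of 1788 against 29.1 CPM. The part of either list in the Il18, Il27 and Il10 values was not tested.

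Il10 had 2.86 and 23.2 CPM in EpoR+ (107 and 889 counts) and 0.453 and 0.268 CPM in EpoR- (18 and 9 counts). The fractions did not overlap, but the EpoR+ libraries differed 8.14-fold from each other, and the log2 difference of 5.15 ± 1.31 did not pass edgeR's test (adjusted p = 0.0844). DESeq2 called it (adjusted p = 0.00102). With 1 library left out edgeR gave differences from 2.98 without the second EpoR+ library (adjusted p = 0.0789) to 5.97 without the first (0.000768), the other 2 such fits had adjusted p of 0.552 and 0.588, and without a low-count filter it was 0.332.

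Several interleukins differed more between the libraries numbered 1 and 2 than between the fractions. Il1b had 69.5 and 404 CPM in EpoR+ and 99.6 and 519 CPM in EpoR-, so that the second library exceeded the first 5.81-fold and 5.22-fold. Il6 had 1.68 and 6.56 CPM in EpoR+ and 1.36 and 5.65 CPM in EpoR- (3.90-fold and 4.15-fold). Il12b had 47.2 and 81.8 CPM against 26.2 and 107 CPM (1.73-fold and 4.08-fold), and Il15 had 23.0 and 30.4 CPM against 14.4 and 28.8 CPM. Rel shared that order, with 70.8 and 227 CPM in EpoR+ and 85.4 and 322 CPM in EpoR-. Neutrophil markers had it in EpoR+, at 256 and 327 CPM, but not in EpoR-, at 971 and 366 CPM. The part of neutrophils in these values was not tested. The labels do not say that a number marks a shared mouse or day.

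For these 4 genes the fractions overlapped and none passed when the library number was left out of the fit. With the number as a block, Il1b passed as lower in EpoR+ (-0.44; adjusted p = 0.00282), being lower in the EpoR+ library of each number, and the other 3 did not pass. Without the block the log2 difference was -0.05 ± 0.81 for Il12b, with a 95% interval of -2.47 to 2.37, -0.39 ± 1.27 for Il1b, 0.24 ± 0.95 for Il6 and 0.31 ± 0.37 for Il15. Leaving out 1 library turned the sign of each of them. It made Il15 pass as higher in EpoR+ without the second EpoR- library (0.89; adjusted p = 0.0406), a fit whose spread comes from the EpoR+ pair alone.
Ebi3 was tighter, with 29.5 and 27.6 CPM in EpoR+ and 25.0 and 27.4 CPM in EpoR- (0.12 ± 0.14; 95% interval -0.24 to 0.49; adjusted p = 0.650). Groups without overlap were seen for 4 of 9 interleukins (Il18, Il27, Il10 and Ebi3) against 58.2% of all genes tested.

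**Figure D3:**
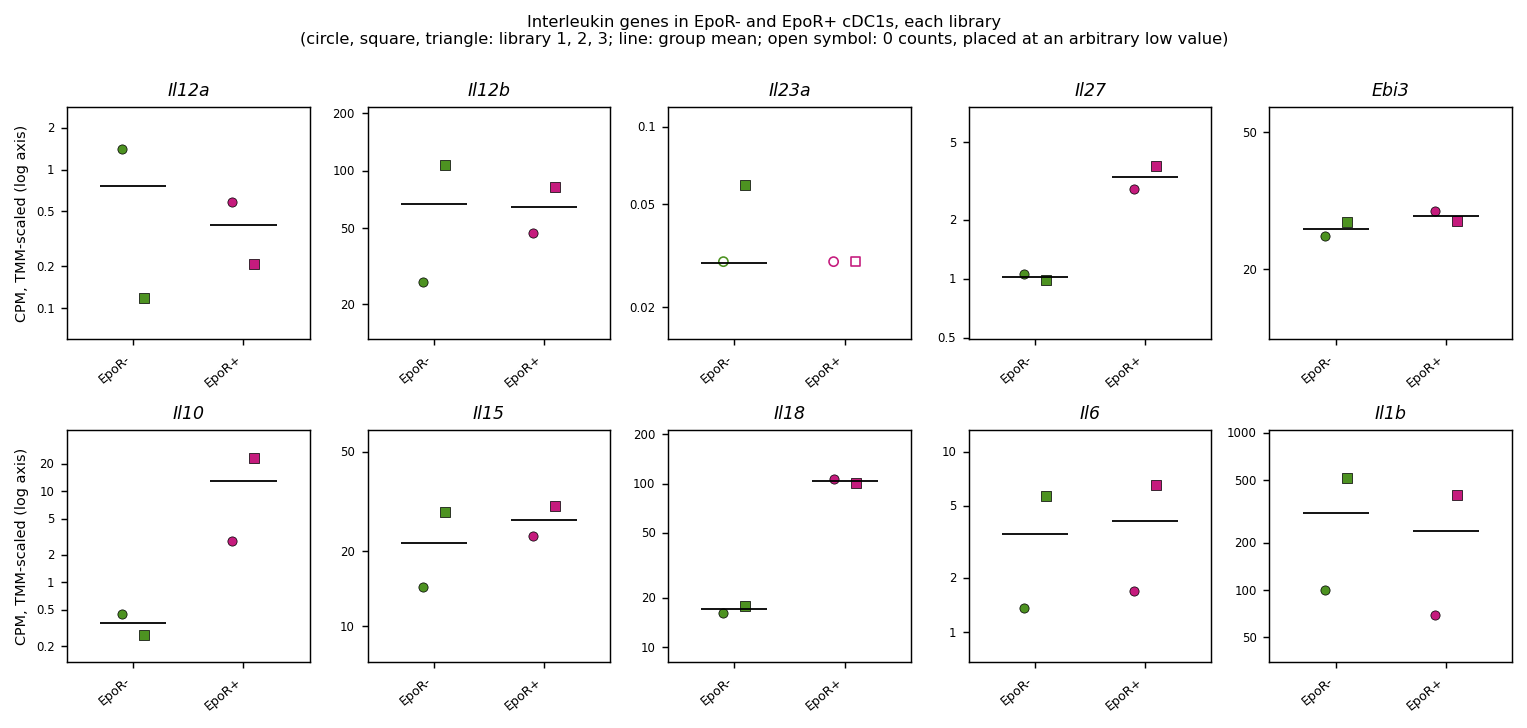
CPM after TMM scaling (log axis, one scale per gene) of the 10 genes in the EpoR- and EpoR+ libraries, with 1 symbol per library and a line at the group mean; open symbols mark 0 counts and sit at an arbitrary low value. Il18 separates the fractions, at 106 and 101 against 16.1 and 17.8 CPM, whereas for Il1b, Il6 and Il12b the library numbered 2 (square) is the higher in both fractions.

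Between the EpoR fractions 11.9% of all genes tested passed as higher in EpoR+ and 4.75% as lower. Of the inducing and processing factors, 5 were higher and 6 lower in EpoR+. Those with the smallest adjusted p were Maf (5.71 ± 0.14; 382 ± 21.0 against 7.31 ± 0.68 CPM), a factor known to act on Il10, Casp1 (1.63 ± 0.18), the protease that cuts the IL-18 and IL-1beta precursors, Tlr4 (4.00 ± 0.36), the endotoxin receptor, and Nlrc4 (2.18 ± 0.24), an inflammasome sensor. Of 17 receptor genes tested 7 were higher and 0 lower, led by Il10rb (1.62 ± 0.13), Il18bp (4.63 ± 0.42; 75.4 ± 2.33 against 3.07 ± 1.63 CPM), Il6ra (0.75 ± 0.11) and Il2rg (1.30 ± 0.20). Il18 and the gene of its soluble trap were thus both higher in EpoR+. Of 13 other cytokine genes tested 1 was higher (Csf1, 1.62 ± 0.38). The macrophage markers given above were higher with these genes, and their part was not tested.

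TLI/ATS gave no call among the interleukins by edgeR's test. None of 9 passed, where 2.7% of all 17236 genes passed, and 4 of the 9 (Il12a, Il12b, Il18 and Il1b) had an unadjusted p under 0.05. DESeq2 called 2 of them, Il12a (adjusted p = 0.00254) and Il18 (adjusted p = 0.00448), where it called 1324 of 18864 genes in all. Groups did not overlap for 7 of the 9, against 47.5% of all genes. The median log2 difference was 0.30 for the interleukins and 0.02 for all genes.

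Il12a had 1.62 and 2.53 CPM in untreated mice and 0 and 0.212 CPM after TLI/ATS. The 13 counts in the treated libraries against 185 in the untreated ones give a ratio of 0.0421 on the scale of unscaled library totals, with a 95% interval of 0.0220 to 0.0738 for counting error alone, and edgeR's adjusted p was 0.204. Il12b had 126 and 135 CPM in untreated mice and 93.0 and 77.7 CPM after TLI/ATS, without overlap (-0.61 ± 0.18; adjusted p = 0.186). Both chains of IL-12 were thus lower in each TLI/ATS library than in either untreated library, and neither passed.

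The other way went Il18, with 19.9 and 19.0 CPM in untreated mice and 33.2 and 41.3 CPM after TLI/ATS (0.94 ± 0.20; adjusted p = 0.0998). Il1b had 586 and 561 CPM in untreated mice and 746 and 782 CPM after treatment (0.41 ± 0.15; adjusted p = 0.284). Ebi3 had 55.7 and 54.1 against 62.7 and 72.7 CPM (0.30 ± 0.17; adjusted p = 0.502) and Il15 34.2 and 32.5 against 38.3 and 44.8 CPM (0.32 ± 0.18; adjusted p = 0.506). Each treated library was the higher, yet the differences did not pass.
Il6 had 4.25 and 3.10 CPM in untreated mice and 7.41 and 4.402 CPM after TLI/ATS (0.69 ± 0.37; adjusted p = 0.472), and its groups overlapped in CPM without TMM scaling. Il27 (3.07 and 2.65 against 1.93 and 4.79 CPM) and Il10 (0.269 and 0.969 against 0.0767 and 0.848 CPM) overlapped.

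Leaving out 1 library changed the calls but not the direction of Il12a, Il12b, Il18 and Il1b. Over the 4 such fits the log2 difference ran from -9.86 to -3.27 for Il12a and from -0.74 to -0.48 for Il12b. It ran from 0.77 to 1.09 for Il18 and from 0.38 to 0.45 for Il1b. Ebi3, Il15 and Il6 stayed higher as well, while Il27 and Il10 changed sign. Without 1 treated library the spread comes from the untreated libraries. The lone treated library is then assumed to vary like them, so calls of those fits are not counted here.

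**Figure D4:**
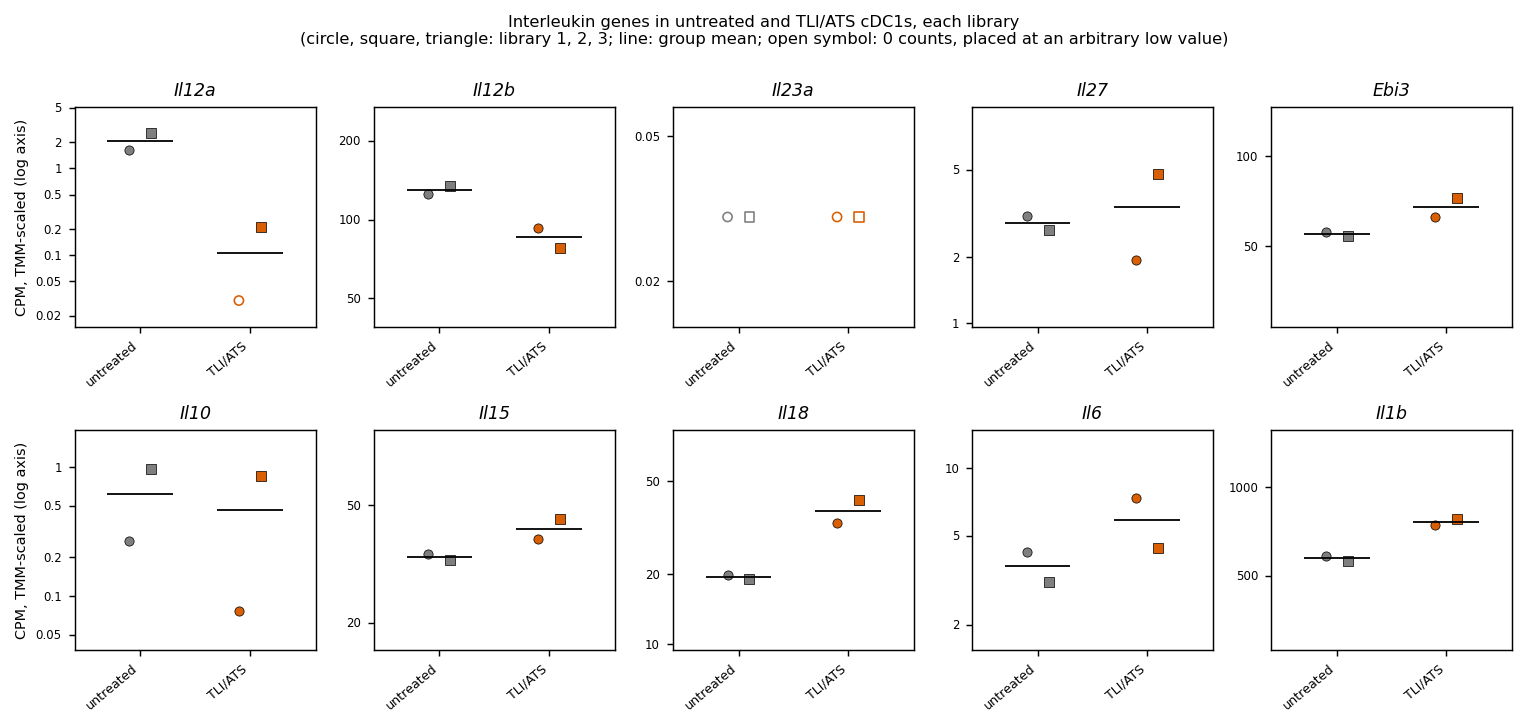
CPM after TMM scaling (log axis, one scale per gene) of the 10 genes in the untreated and TLI/ATS libraries, with 1 symbol per library and a line at the group mean; open symbols mark 0 counts and sit at an arbitrary low value. Il12a and Il12b are lower and Il18 and Il1b higher in both TLI/ATS libraries, and Il23a has 0 counts throughout.

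Other cell types also changed after TLI/ATS. Macrophage markers summed to 1346 to 1628 CPM against 485 to 488 CPM, 7 of 12 being higher. T cell markers fell from 591 to 593 CPM to 14.5 to 19.6 CPM, all 8 being lower, and B cell markers from 548 to 564 CPM to 43.2 to 48.2 CPM, all 7 being lower. Markers of mature dendritic cells summed to 704 to 871 CPM after TLI/ATS against 1272 to 1279 CPM, with none of 7 called. Those of plasmacytoid dendritic cells summed to 227 to 257 CPM against 970 to 983 CPM, 4 of 6 being lower. Neutrophil markers summed to 12.5 to 19.2 CPM after TLI/ATS against 2.93 to 3.07 CPM, 3 of 6 tested being higher. The cDC1 markers summed to 12443 to 12861 CPM against 8971 to 9105 CPM, with none of 12 called. The part of these markers in the interleukin values was not tested.
Of 17 receptor genes tested 5 were lower (2.2% of all genes were) and 0 higher after TLI/ATS: Il2rg (-1.53 ± 0.16), Il2rb (-3.68 ± 0.43), Il27ra (-3.73 ± 0.50), Il6ra and Il18r1, which had 119 and 70 counts in untreated libraries and 0 in both treated ones. Lymphocytes express Il2rb, Il27ra and Il18r1, and the T cell markers above fell with them. Of the signalling genes Stat4, which relays the IL-12 signal, was lower (-1.72 ± 0.24), and of the other cytokines Ifng, which IL-12 induces, was lower (-4.90 ± 0.39). T cell markers fell with Stat4 and Ifng too, and their part was not tested. A link of Stat4 and Ifng to the IL-12 chains was not tested either. None of the 29 inducing and processing factors passed.

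**Figure D5:**
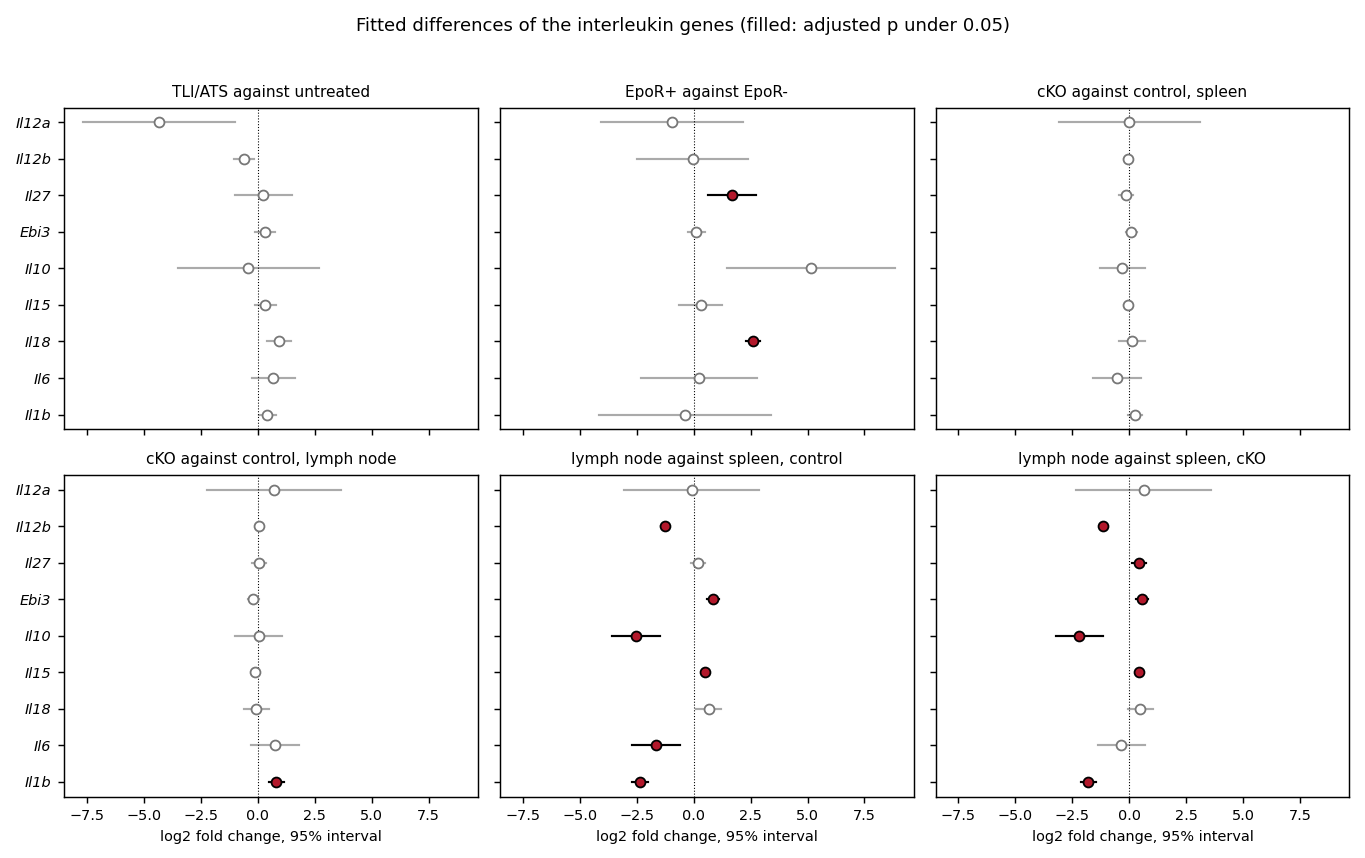
Log2 differences of the 9 tested genes with their 95% intervals in 6 comparisons, filled where the adjusted p was under 0.05. Calls gather in the 2 comparisons of lymph node with spleen, at 6 of 9 each. Calls over all genes gather there too, at 41.3% in controls and 29.4% in cKO mice, against 0.455% to 16.7% elsewhere. Intervals are wide for Il12a, Il10 and, between the EpoR fractions, for Il12b, Il6 and Il1b.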

How the data were processed

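The 3 deposited tables hold raw RNA-seq counts by gene, which the authors did not normalize. Per the submitters' processing notes the first was made on GRCm38 with featureCounts, StringTie, HISAT2 and SAMtools, with no version given in the sources used here. They give no order of steps. The second table, per its header, was counted with featureCounts 2.0.3 and the third, likewise per the file headers, with 2.0.8. Both runs took paired reads, ignored strand and counted each mate on its own, which lets 1 fragment count 2 times. HISAT2 2.1.0 is named in the processing notes for the third. Symbols were matched for 99.1%, 99.9% and 99.5% of genes.

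Each table was fitted whole in edgeR 4.0.16 (R 4.3.3): filterByExpr with a minimum count of 10 and total of 15, TMM, robust quasi-likelihood test, Benjamini-Hochberg adjustment, threshold 0.05. The 12 spleen and lymph node libraries shared 1 fit. DESeq2 1.42.0, RLE size factors, no filter, a filter of 1 CPM, the replicate number as a block, each library left out and compared libraries alone were alternatives. SE is the size of the log2 difference divided by the square root of F. Tested on simulated data, the code kept false calls near the threshold with 3 libraries a group but exceeded it with 2, so adjusted p-values of the first 2 tables may be too small. CPM per kb uses exon lengths of the third table.

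The interleukins, pathway and marker lists were chosen with earlier results of these data known. Pathway examples are up to 4 per list with the smallest adjusted p. Same-numbered libraries did not deviate together in the TLI/ATS and the tissue tables (correlations -0.06 to 0.02) and did in the EpoR table (0.42). With 2 libraries a group both pairs give the same correlation by construction, so 0.42 is a single value. The labels name no shared source there, so the block is an alternative only. The signalling list is not reported here for the EpoR fractions.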

Additional observations from a re-analysis of the deposited data

How the results depend on the processing

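No called difference of an interleukin changed sign in 174 alternative values; of 565 values of differences not called, 36 did, in 18 of 48. Genes called after TLI/ATS rose from 465 to 1324 with DESeq2 and 1264 with the replicate block, and interleukins called from 0 to 2 and 1. Between EpoR fractions the block moved genes called from 2606 to 5347, with Il1b then lower in EpoR+ (-0.44; adjusted p = 0.00282), and RLE size factors moved interleukins from 2 to 1. For cKO in spleen 106 genes became 647 with DESeq2, 436 without a filter and 40 with the block; in lymph node 79 became 204, 170 without a filter and 44 in the compared libraries alone, and the 1 interleukin was lost with the block (adjusted p = 0.0795), and 0 were called in the compared libraries alone. For the difference between tissues 55 became 507, 364 and 34. The block also ended the Il27 call in cKO mice (adjusted p = 0.0515) and gave Il12a a call after TLI/ATS (adjusted p = 0.000109), and changed no other interleukin call. Leaving out 1 library gave 476 to 4908 genes and 0 to 6 interleukins for TLI/ATS, 1454 to 2600 and 1 to 2 for EpoR+, 31 to 379 genes for cKO in spleen, 51 to 72 and 0 to 1 in lymph node, and 29 to 222 for the difference between tissues. Counts moved by over 1.5 times without either TLI/ATS library, either EpoR+ library (1496 and 1454 genes), spleen control library 3 (379, and 222 for the difference between tissues), any spleen cKO library (33, 31 and 57), lymph node control library 1 and lymph node cKO library 1 (51 each), and, for the difference between tissues, spleen cKO libraries 1 and 2 (29 and 31), lymph node control library 1 (30) and cKO library 1 (35). The cause was not tested. Of called genes, the share that was higher went from 18.5% to 32.9% after TLI/ATS and from 80.2% to 66.0% for cKO in spleen with DESeq2, from 71.5% to 57.5% with the block for EpoR+, and from 63.3% to 74.7% without a filter and 31.8% in the compared libraries alone for cKO in lymph node. With DESeq2 the median of all genes between tissues in controls moved from -0.01 to -0.14. Depth limits Il12a, Il23a and Il10, with few counts in most libraries. A pair that adds 2 counts would make counting intervals too narrow. Such counting is documented for the last 2 tables, whereas the counting intervals printed are for the first. Of values from 1 to 20 counts, 40.4% were even in the first table, 66.4% in the second and 59.6% in the third.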
